A study of Mus musculus with 12 samples.

Results

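Cathepsins are the proteases that digest proteins in lysosomes and endosomes, and 9 of them form the subject here: Ctse, Ctsa, Ctsb, Ctsc, Ctsd, Ctsh, Ctsl, Ctss and Ctsz. They are 9 of the 24454 genes in the deposited table of normalized counts, and all 9 passed the minimum mean of 10 normalized counts that 11476 genes reached. The members were chosen by their gene symbols, and Ctse was chosen by its measured difference between the genotypes in these same libraries. The genotype values of Ctse are therefore given as a description with no test. The question was whether Ctse moved alone among the lysosomal proteases.

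The libraries came from acute myeloid leukemia (AML) blasts of mice, made by transducing fetal liver cells with a retrovirus that carries the MLL-AF9 fusion oncogene and the fluorescent reporter Venus. The cells were wildtype (WT) or lacked the β isoform of the transcription factor STAT3 (Δβ), so that every library of both genotypes carried MLL-AF9. They had been transplanted into NSG mice, which lack T, B and NK cells, and Venus+ blasts were sorted from spleen (SP) and bone marrow (BM) of diseased animals. Each of the 4 groups (WT SP, Δβ SP, WT BM and Δβ BM) had 3 libraries, 12 in all. The labels do not say which libraries came from separate animals, and they give no age, so the p-values below measure the spread between these libraries.

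Cathepsins differ in the chemistry of their active site. Ctse and Ctsd are aspartic proteases, Ctsa is a serine carboxypeptidase, and Ctsb, Ctsc, Ctsh, Ctsl, Ctss and Ctsz are cysteine proteases of the papain family. Most are made as inactive precursors, are carried to the lysosome by sorting receptors and are activated there by the acid that a proton pump maintains. Ctse is the exception in this group, since it is found in endosomes and the endoplasmic reticulum more than in lysosomes, and it is known from stomach epithelium, red cell precursors and antigen-presenting cells.

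Library depth ranged from 9001051 to 13859727 reads on genes, and 1 read was worth 0.775 to 1.17 normalized counts. The third WT SP library stood apart. Pearson's r with WT SP 1 and WT SP 2 across genes was 0.897 and 0.943 on the log2 scale, against 0.964 between those 2. It had 40587 normalized counts of Mpo, the peroxidase of immature myeloid granules, against 5947 and 5256 in the other WT SP libraries. Results that rest on it are given with and without it. For the 8 cathepsins other than Ctse, WT SP 1 lay furthest from the mean over libraries, with a median log2 deviation of 1.13. WT SP 2 had 0.35, WT SP 3 had -0.27 and the libraries of the other groups lay between -0.34 and 0.20. All 7 blast and progenitor markers (Kit, Cd34, Mpo, Itgam, Hoxa9, Meis1 and Csf3r) were present in every group. Their summed level was 34477 to 59139 normalized counts for WT and 38797 to 67670.1 for Δβ in SP, which overlapped, and 27443 to 31759 for WT and 43018 to 62020.0 for Δβ in BM, which did not. Mpo alone ranged from 5172 to 14555 for WT and from 24214 to 41895 for Δβ in BM. Over all libraries Mpo had 5172 to 53210 normalized counts and Itgam 7855 to 26293, whereas Kit, Cd34, Hoxa9, Meis1 and Csf3r reached at most 3410. The sum thus rests mostly on Mpo and Itgam. Mpo and the sum moved with genotype in BM, as Ctse did, and the markers other than Mpo were not compared by genotype. The part of these markers in the results was not tested.

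Ctse was far higher in Δβ than in WT blasts in both organs. In SP it had 232, 173 and 52.8 normalized counts in WT replicates 1, 2 and 3, and its Δβ values were 1406, 1031 and 2056. In BM the WT libraries had 144, 114 and 141 normalized counts and the Δβ libraries had 1621, 1448 and 4277. Every Δβ library lay above every WT library, and Δβ replicate 3 was the highest in each organ. Same-numbered Δβ libraries paired between organs, so the rank of replicate 3 is not 2 separate observations. The lowest value, in WT SP 3, rested on 52 reads and the highest, in Δβ BM 3, on 4129.

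In SP the mean was 153 ± 91.5 (SD, n = 3) for WT and 1498 ± 519 for Δβ. In BM it was 133 ± 16.6 for WT and 2449 ± 1586 for Δβ. On the log2(normalized count + 1) scale the difference of Δβ from WT was 3.47 (limma standard error, SE, 0.53), or 11.1-fold, in SP and 4.02 (SE 0.53), or 16.2-fold, in BM. Without WT SP replicate 3, the lowest library, the SP value was 2.84 (SE 0.43), or 7.15-fold. Among all genes, limma with Benjamini-Hochberg adjustment called 0.105% in SP and 0.0697% in BM as changed in either direction. Groups without overlap were found for 17.3% of all genes in SP and 7.63% in BM. These shares are given as background only, since this contrast chose Ctse.

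**Figure D1:**
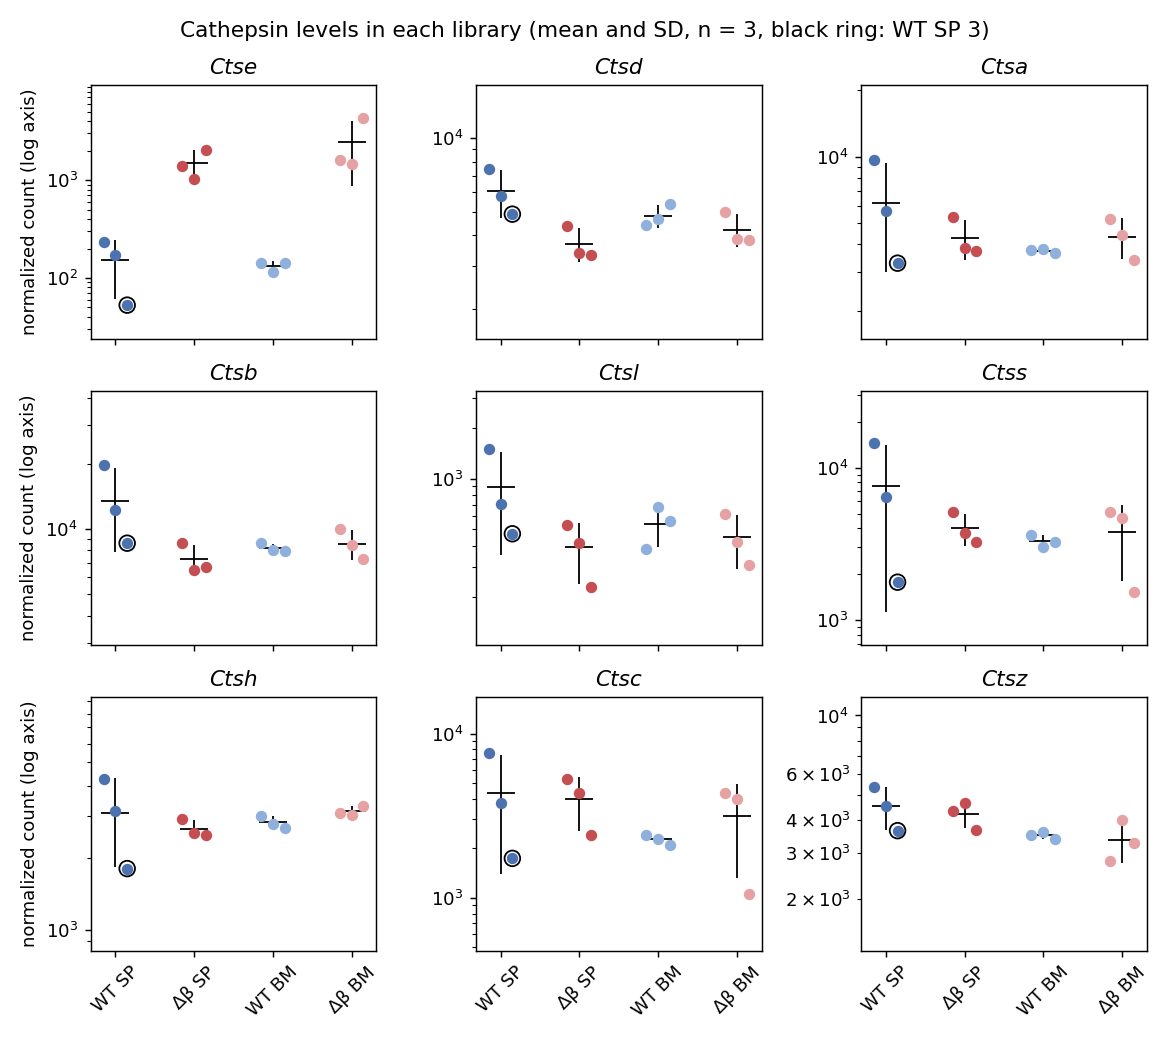
Normalized counts (log axis) of the 9 cathepsins in each of the 12 libraries by group, with a horizontal mark for the group mean and a vertical line for the SD of 3 libraries, and a black ring around WT SP 3. Ctse lies between 52.8 and 232 in WT and between 1031 and 4277 in Δβ, whereas the genotypes overlap for the other 8 genes apart from Ctsd in SP and Ctsh in BM.

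Ctse (RefSeq NM_007799, Entrez gene 13034) lies on the plus strand at chr1:131638306-131675505 of GRCm38, in the annotation of GENCODE release M21. No other annotated gene overlaps it. The order of its level was Δβ BM, Δβ SP, WT SP and WT BM from high to low. Neighbours in this order that share a genotype overlapped. SP against BM gave -0.04 on the log2 scale in WT (95% interval -1.22 to 1.14, limma adjusted p = 0.987) and -0.58 in Δβ (95% interval -1.76 to 0.59, limma adjusted p = 0.99996). Leaving out WT SP replicate 3 turned the WT value to 0.60 (95% interval -0.35 to 1.54, limma adjusted p = 0.405). This unpaired fit thus did not distinguish the level of Ctse between organs within a genotype, with intervals that leave room for differences over 2-fold. Same-numbered libraries paired the organs in Δβ, and Ctse was lower in SP in each pair. The values were 1406 against 1621, 1031 against 1448 and 2056 against 4277 normalized counts.

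Levels can be set side by side between genes only per length, and on that scale Ctse moved up among its relatives. It had a mean of 48.2 normalized counts per kb of exon in WT SP and 41.9 in WT BM, the lowest of the 9 in both groups. In Δβ it had 472 per kb in SP, rank 8 of 9, and 772 in BM, rank 6. The BM rank rests on Δβ BM 3, at 1349 per kb. In Δβ BM 1 and 2 Ctse had 511 and 457, under Ctsh (683 and 671) and Ctsc (745 and 689). Length was that of exons merged over all transcripts of GENCODE M21, which may differ from the transcripts expressed. Ctsl, the other gene at the low end, had 138 and 60.4 per kb in WT and Δβ SP and 83.3 and 69.1 in WT and Δβ BM. The highest levels per kb belonged to Ctss and Ctsz, which filled ranks 1 and 2 in every group, followed by Ctsd.

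Set against Ctsd, the lysosomal aspartic protease and its closest counterpart in this list, Ctse per kb was 0.00802 to 0.0230 of Ctsd per kb in WT SP and 0.0181 to 0.0243 in WT BM. In Δβ the ratio was 0.226 to 0.459 in SP and 0.242 to 0.833 in BM. The highest ratio, 0.833, was in Δβ BM 3.

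Ctse made up a small part of the summed normalized counts of the 9 genes in WT, with 0.201% to 0.407% in SP and 0.393% to 0.486% in BM. In Δβ its share was 3.39% to 7.39% in SP and 4.23% to 15.2% in BM. The sum of the other 8 showed no such step. It was 69994, 42295 and 26196 normalized counts in the WT SP libraries, and Δβ SP gave 36401, 29368 and 25774. In BM the sum was 28805 to 29715 in WT and 23889 to 36079 in Δβ. The WT SP libraries thus varied most, WT SP 1 was the highest of the 12 and the genotypes overlapped in both organs. Summed counts are not corrected for length, so they weigh long genes more.

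**Figure D2:**
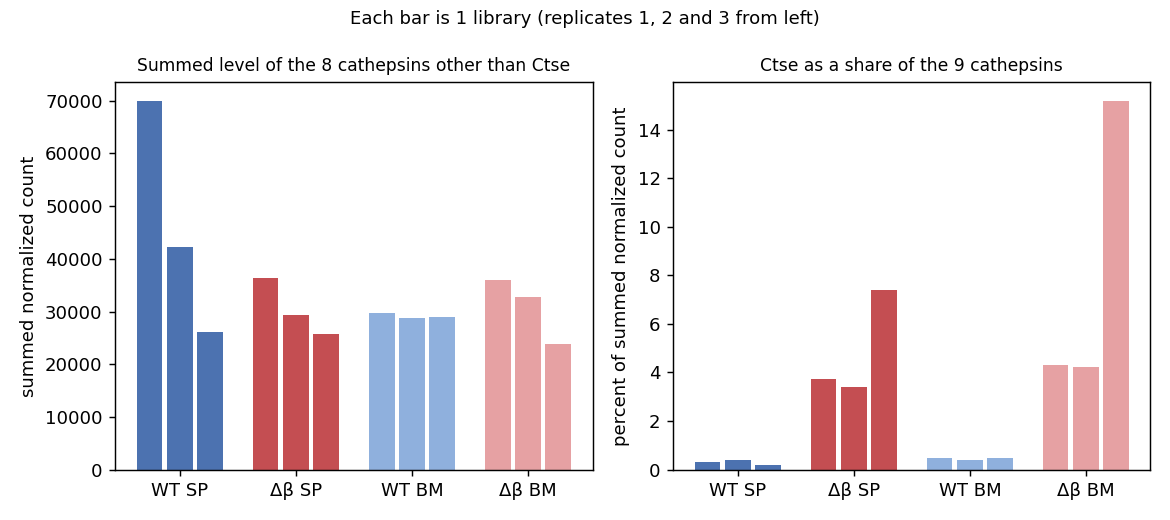
Left, the summed normalized count of the 8 cathepsins other than Ctse; right, Ctse as a percent of the summed normalized count of all 9. Each bar is 1 library, and the share of Ctse is at most 0.486% in every WT library and between 3.39% and 15.2% in Δβ, whereas the sums overlap between genotypes.

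None of the other 8 cathepsins was called higher in Δβ blasts. In BM the log2 fold change lay above 0 for 5 of 8 and below 0 for 3. The limma 95% interval in BM was -1.09 to 1.52 for Ctsc and -1.43 to 1.44 for Ctss. These intervals leave room for differences over 2-fold. In SP, 0 of 8 passed the test in limma, beside 0.105% of all genes, and 0 of 8 in edgeR, beside 0.0349%. At an unadjusted p under 0.05 limma had 3 of 8 (Ctsb, Ctsd and Ctsl, all lower), beside 14.9% of all genes. DESeq2 called 2 of 8, Ctsb and Ctsd, as lower, where it called 2.74% of all genes lower. Without WT SP replicate 3, limma called 5 of 8 as lower (Ctsa, Ctsb, Ctsd, Ctsh and Ctsl), against 11.7% of all genes called lower and 16.4% called in either direction. Leaving out WT SP replicate 1 instead weakened the fall. The SP change was then -0.03 for Ctsa, -0.51 for Ctsb, -0.54 for Ctsd, -0.64 for Ctsl, 0.15 for Ctsh and 0.23 for Ctss. In BM, 0 of 8 passed in limma, edgeR or DESeq2, beside 0.0697%, 0.0697% and 0.322% of all genes called. At an unadjusted p under 0.05 there were also 0 of 8, beside 2.59%, 2.89% and 3.2% of all genes. In bulk libraries, fewer cells of a type and less RNA per cell cannot be told apart.

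**Figure D3:**
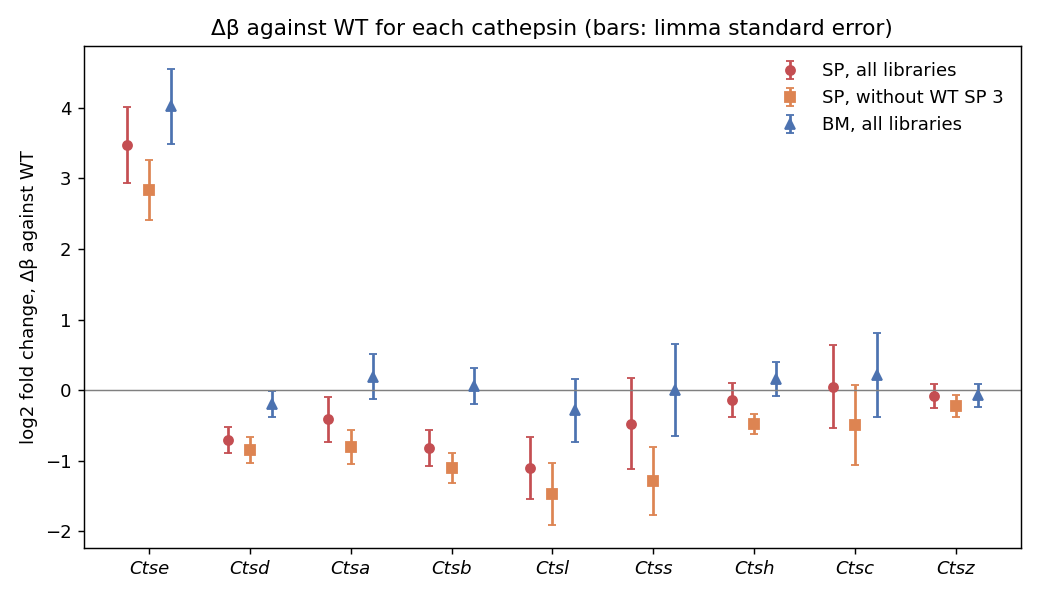
Log2 fold change of Δβ against WT for each cathepsin, in SP with all libraries, in SP without WT SP 3 and in BM, with limma's standard error as bars. Ctse stands between 2.84 and 4.02, and the other 8 lie between -1.47 and 0.21.

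Ctsd, the main lysosomal aspartic protease (NM_009983, minus strand, chr7:142375911-142388038), had 7497, 5785 and 4878 normalized counts in WT SP and 4351, 3381 and 3320.2 in Δβ SP. All 3 Δβ SP libraries lay below all 3 WT SP libraries, and Ctsd was the only one of the 8 whose SP groups did not overlap, beside 17.3% of all genes. Δβ differed from WT by -0.70 on the log2 scale (SE 0.18, limma adjusted p = 0.205). Without WT SP replicate 3 it was -0.85 (SE 0.18, limma adjusted p = 0.0172), and DESeq2 gave -0.69 (adjusted p = 0.0144) with all libraries. In BM, Ctsd had 4397, 4653 and 5387 normalized counts in WT and 4966, 3876 and 3809.7 in Δβ, which overlapped, and the log2 fold change was -0.20 (SE 0.18, limma adjusted p = 0.99997). A protein-coding gene model on the same strand, Gm49369, shares 6757 bases of its span, so reads could be divided between them in counting.

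Ctsb, a cysteine protease with both endopeptidase and dipeptidase activity (NM_007798, plus strand, chr14:63122462-63145923), had the most counts of the 9. The WT SP libraries held 19636, 12256 and 8607 normalized counts and Δβ SP had 8613, 6469 and 6701. WT SP 3 lay at the level of the highest Δβ library, so the groups overlapped. The log2 fold change was -0.82 (SE 0.26, limma adjusted p = 0.228), it was -1.11 (SE 0.22, limma adjusted p = 0.0142) without WT SP replicate 3, and DESeq2 gave -0.87 (adjusted p = 0.0325) with all libraries. In BM the levels were 7902 to 8599 normalized counts in WT and 7251 to 9983 in Δβ, with a log2 fold change of 0.05 (SE 0.26, limma adjusted p = 0.99997).

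Ctsl, a cysteine endopeptidase that also trims the invariant chain in some tissues (NM_009984, minus strand, chr13:64359337-64370890), had 1503, 704 and 471 normalized counts in WT SP and 534, 413 and 228 in Δβ SP. The groups overlapped through WT SP 3. Its log2 fold change in SP, -1.10 (SE 0.44, limma adjusted p = 0.297), was the lowest of the 8. It was -1.47 (SE 0.43, limma adjusted p = 0.0449) without WT SP replicate 3. BM levels ran from 385 to 677 normalized counts with WT and from 309 to 619 with Δβ, with a log2 fold change of -0.29 (SE 0.44, limma adjusted p = 0.99997).

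Ctsa, the carboxypeptidase that also protects the lysosomal enzymes Neu1 and Glb1 (NM_008906, plus strand, chr2:164832873-164841032), had 9628, 5679 and 3289 normalized counts in WT SP and 5311, 3835 and 3722 in Δβ SP. WT SP 3 was the lowest of these 6. The log2 fold change was -0.42 (SE 0.32, limma adjusted p = 0.518) with it and -0.80 (SE 0.25, limma adjusted p = 0.0492) without it. Ctsh, an aminopeptidase (NM_007801, plus strand, chr9:90054152-90076089), had 4274, 3134 and 1800.3 normalized counts in WT SP and 2906, 2528 and 2478 in Δβ SP. Again WT SP 3 was the lowest and the other WT SP libraries the highest. Ctsh gave -0.14 (SE 0.24, limma adjusted p = 0.791) with all libraries and -0.48 (SE 0.14, limma adjusted p = 0.0431) without WT SP replicate 3.

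In BM, Ctsa had 3663 to 3802 normalized counts in WT and 3396 to 5211 in Δβ. For Ctsh the BM range was 2667 to 3000.5 with WT and 3017 to 3294 with Δβ. Ctsh was the only one of the 8 whose BM groups did not overlap, beside 7.63% of all genes, at a log2 fold change of 0.15 (SE 0.24, limma adjusted p = 0.99997).

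Ctss, the protease that trims the invariant chain of MHC class II in antigen-presenting cells (NM_021281, plus strand, chr3:95526786-95556403), varied most among WT SP libraries, with 14501, 6446 and 1772 normalized counts. The Δβ SP libraries had 5094, 3732 and 3252, inside the WT range. The log2 fold change was -0.47 (SE 0.65, limma adjusted p = 0.724) and, without WT SP replicate 3, -1.29 (SE 0.49, limma adjusted p = 0.0922). Ctsc, the dipeptidase that activates the serine proteases of neutrophil granules (NM_009982, plus strand, chr7:88278085-88310888), had 7604, 3778 and 1737 normalized counts in WT SP and 5250.1, 4360 and 2411 in Δβ SP. The groups overlapped over most of their range. Its log2 fold change was 0.05 (SE 0.59, limma adjusted p = 0.974) and -0.49 (SE 0.56, limma adjusted p = 0.563) without WT SP replicate 3.

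Ctsc and Ctss shared a low library in BM. Ctss had 3623, 3026 and 3232 normalized counts in WT BM and 5101, 4643 and 1518 in Δβ BM. Ctsc had 2417, 2291 and 2105 in WT BM and 4326, 4000 and 1050.3 in Δβ BM. For both genes Δβ BM 1 and 2 were above and Δβ BM 3 was below all WT BM libraries. Δβ BM 3 is also the library with the highest Ctse. The log2 fold changes in BM were 0.01 for Ctss (SE 0.65) and 0.21 for Ctsc (SE 0.59), each with a limma adjusted p of 0.99997.

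Ctsz, a carboxypeptidase (NM_022325, minus strand, chr2:174427493-174439039), differed little between genotypes. Its WT SP libraries had 5353, 4514 and 3641 normalized counts and those of Δβ SP 4343, 4649.8 and 3662. Its BM range was 3384 to 3594 for WT and 2800 to 3994 for Δβ. The groups overlapped in both organs. The log2 fold change was -0.08 (95% interval -0.45 to 0.29, limma adjusted p = 0.818) in SP and -0.08 (95% interval -0.45 to 0.29, limma adjusted p = 0.99997) in BM. These intervals lie far under the difference measured for Ctse.

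The strand setting of the counting is not given in the sources used here, so reads of a gene and of one that overlaps it on the opposite strand cannot be told apart. Such overlaps are annotated for Ctsa (Pltp and Neurl2), Ctsb (Fdft1), Ctsc (Gm26522), Ctsl (Gm47123) and Ctsz (Nelfcd, over 10 bases). Pseudogenes on the same strand lie within Ctsl (Gm49230) and Ctss (Hmgb1-ps5).

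For every one of the 8, the change in SP minus the change in BM was below 0, from -0.88 for Ctsb to -0.01 for Ctsz. None passed the test of that difference in limma, edgeR or DESeq2, which called 0%, 0% and 0.0261% of all genes. At an unadjusted p under 0.05 each tool had 1 of 8 (Ctsb by limma), beside 3.2% of all genes in limma, 3.76% in edgeR and 4.84% in DESeq2. The test of this difference for Ctse was left out because both genotype contrasts chose it.

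SP was compared with BM within each genotype. In WT all 8 were above 0 in SP, from 0.04 for Ctsh to 0.74 for Ctss on the log2 scale. None passed the test in limma, edgeR or DESeq2, which called 0%, 0% and 0.967% of all genes. At an unadjusted p under 0.05 limma, edgeR and DESeq2 had 1, 2 and 3 of 8, beside 8.27%, 9.69% and 11.4% of all genes. Ctsb and Ctsz were 2 of 8 without overlap between SP and BM, beside 11.5% of all genes. Without WT SP replicate 3, Ctsa (log2 difference 0.98, limma adjusted p = 0.0479) and Ctsb (0.93, limma adjusted p = 0.0397) were higher in SP, 2 of 8 beside 4.23% of genes called higher and 5.21% called in either direction. In Δβ, 0 of 8 passed in limma, edgeR or DESeq2, which called 0%, 0% and 0.0174% of all genes. At an unadjusted p under 0.05 there were also 0 of 8, beside 1.77%, 1.79% and 2.09% of all genes. The log2 differences lay between -0.25 for Ctsh and 0.53 for Ctsc. Ctsh was the 1 of 8 without overlap in Δβ, lower in SP, beside 7.42% of all genes.

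The levels of several of these genes followed each other over the 12 libraries. Pearson's r of the log2 values was 0.94 for Ctsa with Ctss, 0.91 for Ctsc with Ctss, 0.90 for Ctsa with Ctsb and 0.90 for Ctsd with Ctsl. For Ctse, r ran from -0.58 with Ctsd to 0.27 with Ctsh. These are descriptions over libraries that share group and depth. The spread of Ctse is mostly the genotype step that chose it. A low r with genes that lack this step follows from that choice and does not test whether Ctse moved alone. No r within groups is given.

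Short sequences upstream of the cathepsins are shown because lysosomal genes are known to carry CACGTG, the core of the element that TFEB and its relatives bind, and because STAT dimers bind TTCNNNGAA. The 250 bases upstream of each RefSeq start on GRCm38.p6 were searched on both strands, on which each of these motifs reads the same. Of 7 windows for 6 members, 2 belonged to Ctsa. The sequences used held no window for Ctse, Ctsb and Ctsh, which were not searched. CACGTG was found in 3 of the 7 windows, against 6.02% of all 32851 windows, and TTCNNNGAA in 1 of the 7, against 7.02%. No match overlapped another. Motif letters are in capitals and each run reads 5′ to 3′ on the strand of its gene.
Ctsd, chr7:142388057-142388077, minus strand, 245 bases upstream: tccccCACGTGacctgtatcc
Ctsd, chr7:142387910-142387935, minus strand, 98 bases upstream: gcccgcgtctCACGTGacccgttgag
Ctsa, chr2:164833751-164833772, plus strand, 12 bases upstream: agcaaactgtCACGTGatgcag
Ctsl, chr13:64370741-64370766, minus strand, 236 bases upstream: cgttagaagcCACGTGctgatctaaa
Ctsc, chr7:88277839-88277867, plus strand, 236 bases upstream: agctttggcgTTCCTTGAAaggcagaggt
Ctsd, Ctsa and Ctsl, which carry CACGTG, were among the 5 genes called lower in Δβ SP without WT SP replicate 3. Ctsb and Ctsh, also among those 5, were not searched. With all libraries limma called none of these genes in SP, so the calls rest on that fit. A link between the motif and the levels was not tested. Upstream here refers to the RefSeq start, which can lie inside the gene span of GENCODE M21. The Ctsa site, the Ctsl site and the Ctsd site 98 bases upstream lie inside the spans given above for these genes. A match describes letters in a window and not a bound site.

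Of 14 listed cathepsins outside the 9, 3 were tested. By limma 0 of 3 passed, beside 0.105% of all genes in SP and 0.0697% in BM. None of the 3 had an unadjusted p under 0.05 in either organ, beside 14.9% of all genes in SP and 2.59% in BM. Ctsg, a serine protease of neutrophil granules, had log2 fold changes of 0.09 in SP (limma adjusted p = 0.960) and -0.48 in BM (limma adjusted p = 0.99997). WT SP 3 had 17096 normalized counts of Ctsg against 1721 and 3826 in WT SP 1 and 2, and the SP value without it was 0.999 (limma adjusted p = 0.155). Ctso, a papain family protease, gave -0.01 in SP and 0.00 in BM. Ctsf, another one, had few counts, 5.70 to 112, and gave 1.71 in SP (limma adjusted p = 0.360) and 0.31 in BM (limma adjusted p = 0.99997). Ctsk, the collagen-cutting protease of osteoclasts, reached at most 9 reads in any library. Ctsw, known from T and NK cells, was under the minimum mean and was not tested. Its WT SP levels of 3.42, 1.06 and 1.01 normalized counts did not overlap those of 13.95, 7.84 and 5.34 in Δβ SP. Groups without overlap in SP were found for 17.3% of all tested genes. The BM levels, 1.98, 1.13 and 4.03 with WT and 42.4, 7.01 and 3.11 with Δβ, overlapped. These values rest on 1 to 39 reads. The other 9 had 0 reads in every library, where 3 reads were taken as the floor, which covers counting error only.

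The natural inhibitors of cathepsins showed a split. Of 9 listed, 8 were tested and 0 passed in either organ by limma, with 1 of 8, Serpina3g, under an unadjusted p of 0.05 in each organ, beside 14.9% of all genes in SP and 2.59% in BM. Serpina3g, an inhibitor of cysteine cathepsins, had 11.4, 9.54 and 74.1 normalized counts in WT SP and 272, 512 and 66.2 in Δβ SP. The WT BM libraries had 1.98, 4.51 and 8.06 and the Δβ BM libraries 149, 61.9 and 7.25. Δβ replicate 3 was low in both organs and overlapped WT, the reverse of its rank for Ctse. The log2 fold change was 3.30 (SE 1.13, limma adjusted p = 0.256) in SP, 3.01 (limma adjusted p = 0.99997) in BM and 4.21 (limma adjusted p = 0.0340) in SP without WT SP replicate 3.

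The stefins, cytosolic inhibitors of cysteine cathepsins, lay on the other side of 0. Stfa1 gave -0.51 in SP and -0.36 in BM, Stfa2 gave -0.85 and -0.61, and none of these passed. Stfa2 (-2.14, limma adjusted p = 0.0288) and Stfa2l1 (-1.67, limma adjusted p = 0.0297) were lower in Δβ SP without WT SP replicate 3, where 11.7% of all genes were called lower. The stefin genes are near-identical copies, so reads may be divided between them in counting. Cst3, the secreted cystatin C, gave -0.25 in SP and 0.08 in BM, and neither passed. The median of the 8 was -0.38 in SP and -0.27 in BM.

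The lysosome as a whole was read from 6 lists of 70 genes, 69 of them tested. In SP 0 of 69 passed by limma, and 13 (10 lower, 3 higher) had an unadjusted p under 0.05, beside 14.9% of all genes. DESeq2 called 2 of 69, beside 3.98% of all genes. The median log2 fold change was -0.21 against -0.01 for all 11476 genes, and 51 of 69 genes were below 0. In BM 0 of 69 passed, 1 had an unadjusted p under 0.05, beside 2.59% of all genes, and the median was 0.05 against -0.02 for all genes. Without WT SP replicate 3, 16 of 69 passed in SP, 15 lower and 1 higher, beside 16.4% of all genes called in either direction and 11.7% called lower, and the median was -0.31 against -0.02 for all genes.

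By role, the other peptidases (6 tested) had a median of -0.09 in SP and 0.11 in BM. Napsa, an aspartic protease related to Ctse and Ctsd, had 6981, 5844 and 3267 normalized counts in WT SP and 2792, 2877 and 4559 in Δβ SP, which overlapped, and gave -0.62 (limma adjusted p = 0.365). It was lower without WT SP replicate 3, at -0.94 (limma adjusted p = 0.0401). The 28 hydrolases and activators had a median of -0.32 in SP and 0.05 in BM, and 9 of them were lower in SP without WT SP replicate 3, beside 11.7% of all genes called lower there. They included Ids (-1.16), an iduronate sulfatase, and Gm2a (-0.92), the activator that presents gangliosides to hexosaminidase. Psap, the prosaposin precursor and the most abundant of them, gave -0.36 in SP (limma adjusted p = 0.753) and -0.02 in BM.

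The 10 membrane proteins had a median of -0.17 in SP and 0.08 in BM, and Lamp1, their most abundant member, gave -0.12 in SP and 0.15 in BM, which did not pass. Lamp2 (-0.51) and the cholesterol exporter Npc1 (-0.73) were lower in SP without WT SP replicate 3, 2 of 10 beside 11.7% of all genes. The 14 tested proton pump genes had a median of -0.14 in SP and 0.07 in BM, and Atp6ap1, an accessory subunit, was lower (-0.58) without that library, 1 of 14 beside 11.7% of all genes. The 7 sorting genes had a median of 0.02 in SP and -0.01 in BM. M6pr, a mannose 6-phosphate receptor that carries precursors to lysosomes, gave 0.02 in SP and -0.01 in BM, and none of the 7 passed with or without WT SP replicate 3.

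Of the 4 transcription factors that bind CACGTG, 3 lay below 0 in SP and 1 above. With all libraries 0 of 4 passed there by limma, and 1 had an unadjusted p under 0.05, beside 14.9% of all genes. Tfeb had 1040.5, 796 and 452 normalized counts in WT SP and 537, 429 and 553 in Δβ SP. WT SP 3 lay inside the Δβ range, and the log2 fold change was -0.52 (limma adjusted p = 0.390) with it and -0.85 (limma adjusted p = 0.0277) without it. Tfe3 gave -0.44 (limma adjusted p = 0.473) with it and -0.83 (limma adjusted p = 0.0248) without it. Tfec, a relative found in macrophages, went the other way, with 0.67 (limma adjusted p = 0.282) and 0.92 (limma adjusted p = 0.0274). Without that library 3 of 4 factors were thus called, beside 16.4% of all genes. In BM the 4 factors lay between -0.09 and 0.05, and none passed. WT SP 1 had the highest Tfeb and Tfe3 and the lowest Tfec of all libraries, and values without WT SP 1 are not given for these genes.

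**Figure D4:**
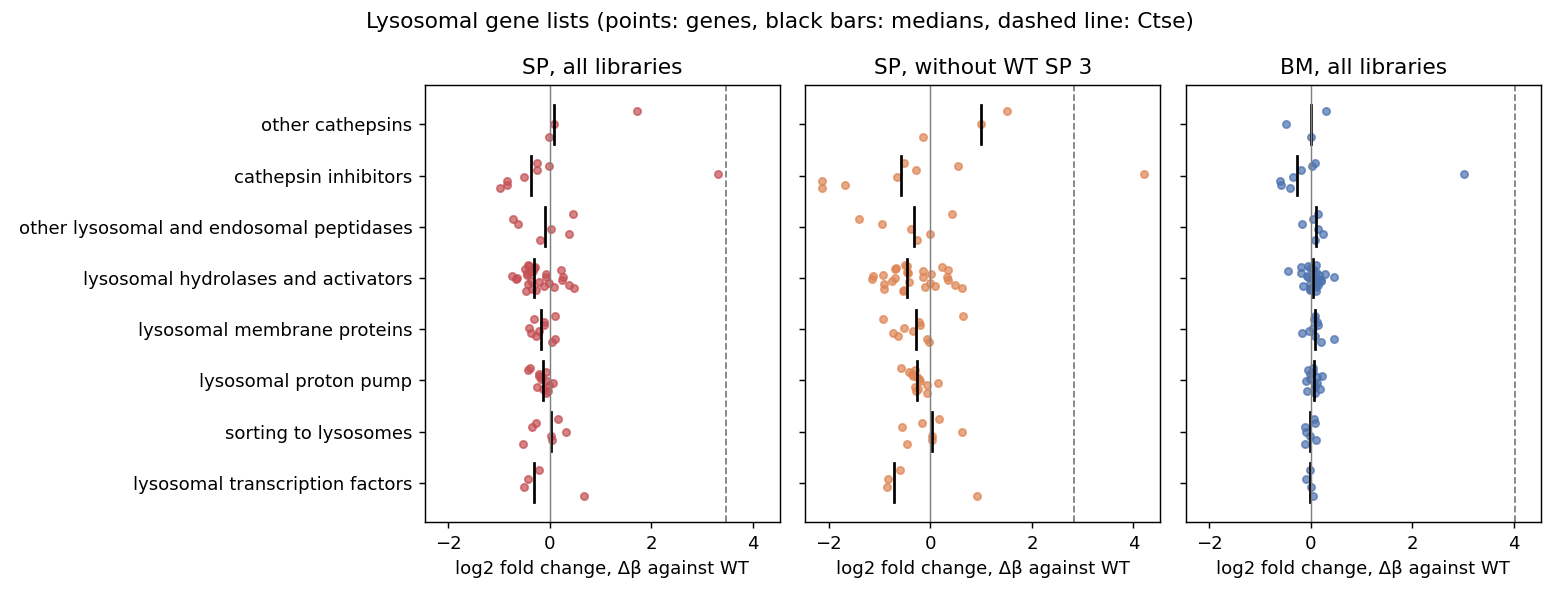
Log2 fold change of Δβ against WT for each tested gene of 8 lists, in SP with all libraries, in SP without WT SP 3 and in BM, with black bars for list medians and a dashed line for Ctse. The lysosomal lists lie near 0 in BM and mostly below 0 in SP, and Serpina3g, the isolated point among the inhibitors, is the 1 gene close to Ctse.

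Genes whose pattern was most like that of Ctse were taken from all tested genes by Pearson's r of the log2 values over the 12 libraries. They were Cwc22 (0.944), Chil1 (0.939), Chit1 (0.935), Wdfy1 (0.921) and Arhgap27os3 (0.916), and no lysosomal protease was among them. Chil1, a chitinase-like protein, had 131 to 313 normalized counts in WT SP and 1120 to 2287 in Δβ SP. Chit1, a chitinase secreted by phagocytes, had 7.42 to 22.8 in WT SP and 115 to 369 in Δβ SP. Both had their highest SP value in Δβ SP 3 and their highest BM value in Δβ BM 3, as Ctse did. Cwc22, a splicing factor, was nearly flat within a genotype, at 412 to 527 normalized counts in the 6 WT libraries and 6313 to 6892 in the 6 Δβ libraries. The r values describe libraries that share their groups and carry no p. Genes with a genotype step like the one that chose Ctse rank high by this measure. The absence of lysosomal proteases among them is therefore no test.

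Of 39 genes of the table that begin within 1 Mb of the start of Ctse, 21 were tested and 0 passed in SP or BM by limma with all libraries. At an unadjusted p under 0.05 there were 5 in SP and 1 in BM, beside 14.9% and 2.59% of all genes. They had medians of -0.10 and -0.05 on the log2 scale in SP and BM. Upstream of Ctse, Srgap2 gave -0.38 in SP and -0.19 in BM, and Fam72a gave 0.09 and -0.52. Downstream, Rab7b, an endosomal GTPase that begins 50.4 kb away, gave -0.63 in SP and -0.51 in BM, and Pm20d1, with a mean of only 12.1 normalized counts, gave 1.94 and 0.16. Rab7b had 1094, 626 and 313 normalized counts in WT SP and 459, 402 and 311 in Δβ SP, which overlapped. Without WT SP replicate 3, 5 of the 21 passed in SP, all lower, beside 11.7% of all genes called lower. They were Rassf5 (-1.64, limma adjusted p = 0.00768), Ikbke (-1.28, limma adjusted p = 0.0172), Rab7b (-1.10, limma adjusted p = 0.0187), Dyrk3 (-0.98, limma adjusted p = 0.0277) and Mapkapk2 (-0.45, limma adjusted p = 0.0402). Ikbke, an IκB kinase relative, had 964 to 1142 normalized counts in WT SP and 332 to 519.9 in Δβ SP, with no overlap, and none of the 21 passed as higher. Genes further than 1 Mb from Ctse were not compared by position. Whether the genes most like Ctse lie on the same chromosome was not examined, so these values describe the window only.

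**Figure D5:**
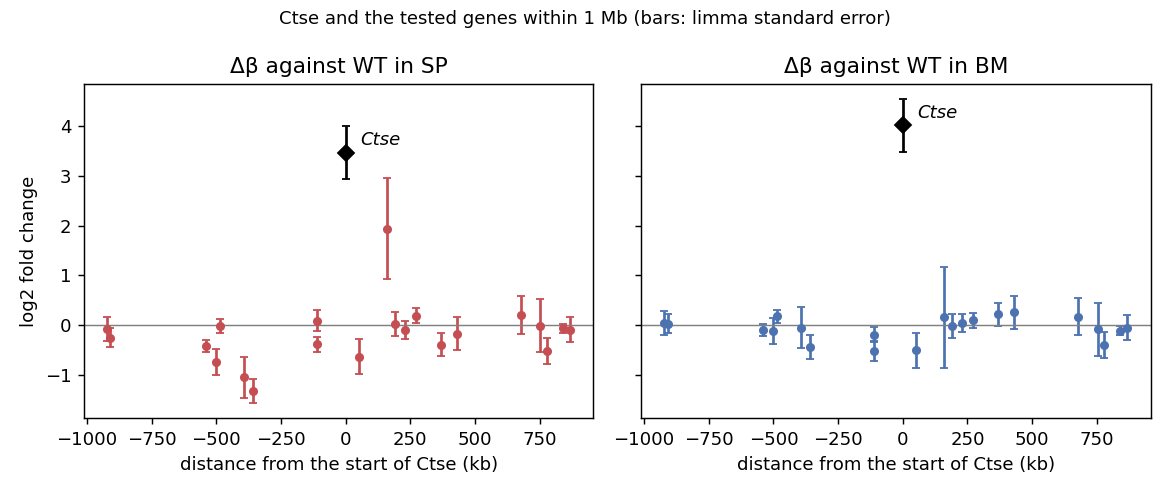
Log2 fold change of Δβ against WT in SP and in BM for Ctse and the 21 tested genes within 1 Mb, by distance from the start of Ctse in kb, with limma's standard error as bars. Ctse, at 3.47 and 4.02, stands above all neighbours, which lie between -1.33 and 1.94 in SP and -0.52 and 0.26 in BM.

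Markers of other cells that could be sorted with the blasts are given beside these results. Ctse is known from red cell precursors, and of 10 erythroid markers 5, including the globin genes Hbb-bs and Hba-a1, had 0 reads in all libraries, with summed levels of 5.43 to 17.3 normalized counts over the 4 groups. Globin genes have near-identical copies that can lose reads in counting. Of 10 markers of red pulp macrophages, Cd5l, Spic, C1qa, C1qb and C1qc reached at most 30.8 normalized counts, whereas Vcam1 (699 to 5511), Adgre1 (1733 to 3880.5) and Slc40a1 (515 to 1361) were well expressed. None of the 10 was at 0 in all libraries, and the summed levels in SP were 3793 to 5704 for WT and 3482 to 5097 for Δβ, and in BM 6489.6 to 9028 for WT and 4692 to 5921 for Δβ. The sum of neither list was higher in Δβ than in WT. Summed levels of 7 dendritic cell markers, of which Flt3 is also a progenitor gene, overlapped, with SP values of 213 to 643 for WT and 181 to 659 for Δβ and BM values of 298 to 970 for WT and 290.3 to 810 for Δβ.

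Of 5 B cell markers Cd79b was the only one above 31.9 normalized counts, and their sums were 284 to 403 in WT SP and 402 to 466 in Δβ SP. In BM these were 223 to 440.5 in WT and 365 to 440.3 in Δβ. The 8 mature neutrophil markers were all present, and their sum was 101939 to 242085 in WT SP against 65847 to 77064 in Δβ SP, with no overlap, whereas BM had 84009 to 282300.0 with WT and 56126 to 169445 with Δβ. Over all libraries S100a9 had 20736 to 120747 normalized counts, S100a8 11492 to 78002 and Camp 10131 to 49890, whereas Ly6g reached at most 606 and Cxcr2 920. The sum thus rests mostly on S100a9, S100a8 and Camp, and single markers were not compared by genotype. This sum was lower in Δβ SP, as were the cathepsins called there without WT SP replicate 3. The part of neutrophil markers in that result was not tested.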

How the data were processed

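The authors sequenced poly-A enriched RNA of Venus-sorted MLL-AF9 blasts and deposited 1 signal value for each gene in each library, namely reads on the gene over a library size factor. The submitters' processing notes name FastQC, STAR, featureCounts and DESeq2 and the builds GRCm38 and mm10. Versions and strand settings are not given in the sources used here. All values (100%) were whole multiples, within 0.001 of a read, of the value of 1 read in their library, so whole reads were recovered. Depth was 9001051 to 13859727 reads on genes. The header of the deposited table lacks the separator between the gene ID and the first value column, so column names were placed 1 cell further right to match the rows. A further 6 columns of values match no sample label and were not used. Groups follow the genotype and organ in the labels.

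Genes with a mean of at least 10 were compared by limma 3.58.1 in R 4.3.3 (functions lmFit and eBayes, trend set) on log2(normalized count + 1), with 4 group means in 1 fit and Benjamini-Hochberg adjustment over 11476 genes at 0.05. The scale understates changes of low genes. Other settings tried were a pseudocount of 0.25 or 4, all genes or those with a mean of at least 50, TMM rescaling, edgeR 4.0.16 and DESeq2 1.42.0 on whole reads, fits restricted to the 6 libraries compared, a replicate block and each library left out. The test was checked on simulated data. Genes were placed with GENCODE M21 (24081 placed, 373 not).

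The members and lists were chosen with earlier results of these data known. The 9 members are always named. Of each list up to 4 genes are named, those called by size and then those with the highest mean, with Serpina3g and Tfec named as well because of their values; the 5 genes most like Ctse and the nearest 2 tested genes on each side of it complete the rule. Some genes that the rule covers are not reported here.

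Whether numbers pair libraries was checked on deviations from group means. Same-numbered SP and BM libraries had r of 0.66, 0.61 and 0.63 in Δβ and of -0.01, -0.04 and -0.24 in WT, so numbers paired the organs in Δβ but not in WT, and no such pairing held between genotypes.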

Additional observations from a re-analysis of the deposited data

How the results depend on the processing

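The difference of Ctse was 3.32 to 3.50 in SP and 3.99 to 4.21 in BM over the other settings, and 2.84 to 3.90 and 3.53 to 4.31 with a library left out. The SP count of the other 8 was 0 under every setting except DESeq2 (2 of 8) and the loss of WT SP replicate 3, with 0 to 5 over the libraries left out, and the count for SP against BM in WT was 0 to 2. With the replicate block 0 of 8 were called in each of the 5 comparisons, and the block changed no call of a cathepsin, also in the paired Δβ organs. Over all genes it called 2 in SP and 5 in BM, against 12 and 8 without it. SP counts over all genes were 1 to 18 apart from DESeq2 (457) and the loss of WT SP replicate 3 (1884), and in BM they were 1 to 13 apart from DESeq2 (37). For SP against BM in WT, DESeq2 called 111 genes, and 598 were called without WT SP replicate 3.

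Some values changed sign, and the cause was not tested. In SP, Ctsc was -0.086 by edgeR and -0.10 by DESeq2. SP against BM for Ctse in WT was 0.17 by edgeR and 0.19 by DESeq2, and for Ctsa in Δβ it was 0.00019 by DESeq2. With a library left out the SP change was -0.49 to 0.57 for Ctsc, -0.48 to 0.15 for Ctsh, -1.29 to 0.23 for Ctss and -0.23 to 0.050 for Ctsz. The BM change was -0.064 to 0.17 for Ctsb, -0.15 to 0.88 for Ctsc, -0.31 to 0.57 for Ctss and -0.21 to 0.046 for Ctsz. SP against BM was -0.46 to 0.60 for Ctse and -0.24 to 0.38 for Ctsh in WT, and -0.18 to 0.13 for Ctsa, -0.13 to 0.89 for Ctsc, -0.49 to 0.13 for Ctsl and -0.30 to 0.57 for Ctss in Δβ. Of 776 values of single genes under other settings, 734 kept direction and call, 33 reversed and 9 passed the threshold only there. For the genotype values of Ctse no call was compared. They were counted as kept when they lay within the pooled within-group SD of the main value. With 3 libraries a group, an exact permutation test of a single value cannot go below 0.1, and depth limits only genes of few reads.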

Other observations

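Some lysosomal genes also passed between the organs of WT blasts once WT SP replicate 3 was left out. Then 7 of the 69 tested genes passed in SP against BM by limma, 6 higher and 1 lower in SP, where 5.21% of all genes were called, and the median log2 difference was 0.28 against 0.01 for all genes. Those higher in SP included Tfeb (0.95) and Tfe3 (0.93), both regulators of lysosomal genes, Gm2a (1.21), Fuca1 (0.69) and Atp6v0d1 (0.52), a proton pump subunit. Arsb, a sulfatase, was lower (-0.96). With all libraries 0 of 69 passed, 6 had an unadjusted p under 0.05, beside 8.27% of all genes, and the median was 0.16. Of 12 fits with 1 library left out, the other 11 also called 0 of these genes. WT SP 1, kept when replicate 3 was dropped, had the highest median log2 deviation of all libraries over the 69 genes, at 0.34. WT SP 2 had 0.11. In Δβ blasts 0 of 69 passed and the median was -0.06.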
